A study of Mus musculus with 45 samples.

Results

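The Tribbles pseudokinase genes Trib1, Trib2 and Trib3 and the immediate early response genes Ier2, Ier3, Ier5 and Ier5l were followed through 9 conditions of a bicuculline assay in mouse hippocampal primary neurons. The 7 genes were chosen by name, by matching Ensembl identifiers to mouse symbols, and are 7 of 54532 genes in the count table. All 7 had reads in all 45 libraries. Cultures came from newborn C57BL/6N mice and were first kept in B27 and 1% rat serum. Before treatment the medium was changed to one listed without either. AraC, which kills dividing cells, was added on day in vitro (DIV) 3. Treatment was on DIV 10 or 11 according to the labels, and on DIV 11 according to the sequencing methods. Each condition had 1 library for each of the numbers 1, 3, 6, 7 and 8 in the labels. The study states 5 separate culture preparations, and each number was taken as 1 preparation. Control cultures were untreated, and 3 conditions received only bicuculline (Bic, 50 µM, a GABA-A receptor blocker that induces action potential (AP) firing) for 0.5, 1 or 2 h. In the short protocol (SP), TTX (1 µM, a sodium channel blocker that stops AP firing), alone or together with NMDA (30 µM), was added for 0.5 h once Bic had acted for 0.5 h. In the long protocol (LP), cultures had Bic for 1 h before a further 1 h in which TTX, TTX plus NMDA (same concentrations) or TBOA (50 µM, a glutamate uptake blocker that causes glutamate spillover) was present. The passive effect is TTX against Bic alone for the same total time, the active effect is TTX/NMDA against TTX, and the total effect is TTX/NMDA against Bic alone.

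Tribbles proteins have a kinase-like fold with weak or no catalytic activity and act as scaffolds. Their C-terminal tail recruits the ubiquitin ligase COP1, and substrates such as the transcription factor C/EBPα are then degraded. TRIB1 and TRIB2 drive this reaction, whereas TRIB3 is best known as an ATF4 and CHOP target in the integrated stress response. The Ier genes are classic primary response genes, transcribed within minutes of growth factor or synaptic stimulation without new protein synthesis. IER2, IER5 and IER5L share a conserved N-terminal region, and IER5 brings the phosphatase PP2A to the heat shock factor HSF1. IER3 is a small unrelated protein that binds PP2A and modulates survival signalling.

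In the GRCm38 assembly, with the GENCODE M21 gene models, Trib1 lies on the plus strand at chr15:59648350-59657099, Trib2 on the minus strand at chr12:15791727-15816922 and Trib3 on the minus strand at chr2:152337422-152344032. Ier2 is a minus-strand gene with 1 exon at chr8:84661331-84662852. Ier3 is a plus-strand gene with 2 exons at chr17:35821684-35822923. Ier5 (chr1:155096361-155099636) and Ier5l (chr2:30471537-30474219) are minus-strand genes with 1 exon each, and Trib3 and Ier5l share chromosome 2 without being neighbours. RefSeq promoter sequences (GRCm38.p6, 250 bases before to 50 bases after the start site) were matched for 5 of the 7 genes, and none was used for Trib1 or Ier2. The promoters of Ier5, Ier5l and Trib3 are printed 5′ to 3′ because these genes, which were measured in the same libraries, changed in unlike ways. Ier5 rose with AP firing, Ier5l rose after TTX in the LP and Trib3 was lower after 2 h of Bic.
Ier5, chr1:155099587-155099886, minus strand: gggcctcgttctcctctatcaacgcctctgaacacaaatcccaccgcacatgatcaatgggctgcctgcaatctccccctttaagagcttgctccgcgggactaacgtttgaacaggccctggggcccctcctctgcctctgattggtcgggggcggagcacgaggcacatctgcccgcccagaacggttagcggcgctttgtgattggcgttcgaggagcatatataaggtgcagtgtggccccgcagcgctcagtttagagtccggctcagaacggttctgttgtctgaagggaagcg
Ier5l, chr2:30474150-30474449, minus strand: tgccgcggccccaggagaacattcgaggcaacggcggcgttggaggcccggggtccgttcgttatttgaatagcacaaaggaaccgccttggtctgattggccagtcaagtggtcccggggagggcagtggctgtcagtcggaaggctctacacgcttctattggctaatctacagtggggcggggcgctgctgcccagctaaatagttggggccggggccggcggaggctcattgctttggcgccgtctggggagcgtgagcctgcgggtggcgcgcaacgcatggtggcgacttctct
Trib3, chr2:152344011-152344310, minus strand: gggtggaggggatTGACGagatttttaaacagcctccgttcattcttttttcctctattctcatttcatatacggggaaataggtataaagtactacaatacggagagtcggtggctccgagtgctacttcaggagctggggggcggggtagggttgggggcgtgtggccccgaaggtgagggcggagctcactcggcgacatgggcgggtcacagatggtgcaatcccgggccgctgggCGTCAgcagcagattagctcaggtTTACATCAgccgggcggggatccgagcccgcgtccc
Capitals mark motif matches on either strand among the cAMP response element (CRE) TGACGTCA, its core TGACG (which the full CRE contains), the CArG box bound by SRF, AP-1 sites written TGANTCA, and the C/EBP-ATF response element (CARE) written TGATGNAA. The Trib3 promoter held 2 copies of the CRE core and 1 CARE, the latter starting 15 bases into the transcript. No match was found in the windows of Ier5, Ier5l, Ier3 or Trib2. Among 32851 RefSeq promoters of the same length, 20.8% held the CRE core, 3.97% a CARE, 7.81% an AP-1 site, 1.79% a full CRE and 1.63% a CArG box.

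The libraries held 11316580 to 81129276 counted reads. Members were covered by at least 26 reads in every library, with medians from 116 reads for Ier3 and 124 for Trib3 up to 3286 for Ier2, so counting error was largest for Ier3 and Trib3. Levels are given as CPM (the gene's share of a library's counts, scaled by the trimmed mean of M-values, TMM), as mean ± SD of 5 preparations unless stated. The 5 neuronal markers (Rbfox3, Map2, Tubb3, Snap25 and Syt1) summed to between 4546 and 5856 CPM in all libraries, and 5 microglial markers to between 3.03 and 5.79 CPM. Astrocyte markers (Gfap, Aqp4, Aldh1l1, Slc1a3 and Aldoc) summed to between 425 and 1067 CPM outside LP TTX/NMDA and to between 772 and 1621 CPM in LP TTX/NMDA, so the cultures held astrocytes as well as neurons.

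Compared per kilobase of exon (RPKM), Ier2 (13.4 ± 2.28) and Trib2 (12.6 ± 1.54) were the most abundant members in untreated cultures. Ier5 was at 7.19 ± 1.496 RPKM, and Trib3 (2.80 ± 0.861), Trib1 (2.67 ± 0.162), Ier5l (2.36 ± 0.358) and Ier3 (1.87 ± 0.409) were lower. After 2 h of Bic, Ier2 stood at 115 ± 13.2, Ier5 at 23.8 ± 2.07 and Trib1 at 20.1 ± 4.24 RPKM, and Trib2, at 12.5 ± 1.55 RPKM, was at its untreated level. The plot of CPM by condition shows all libraries.

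**Figure D1:**
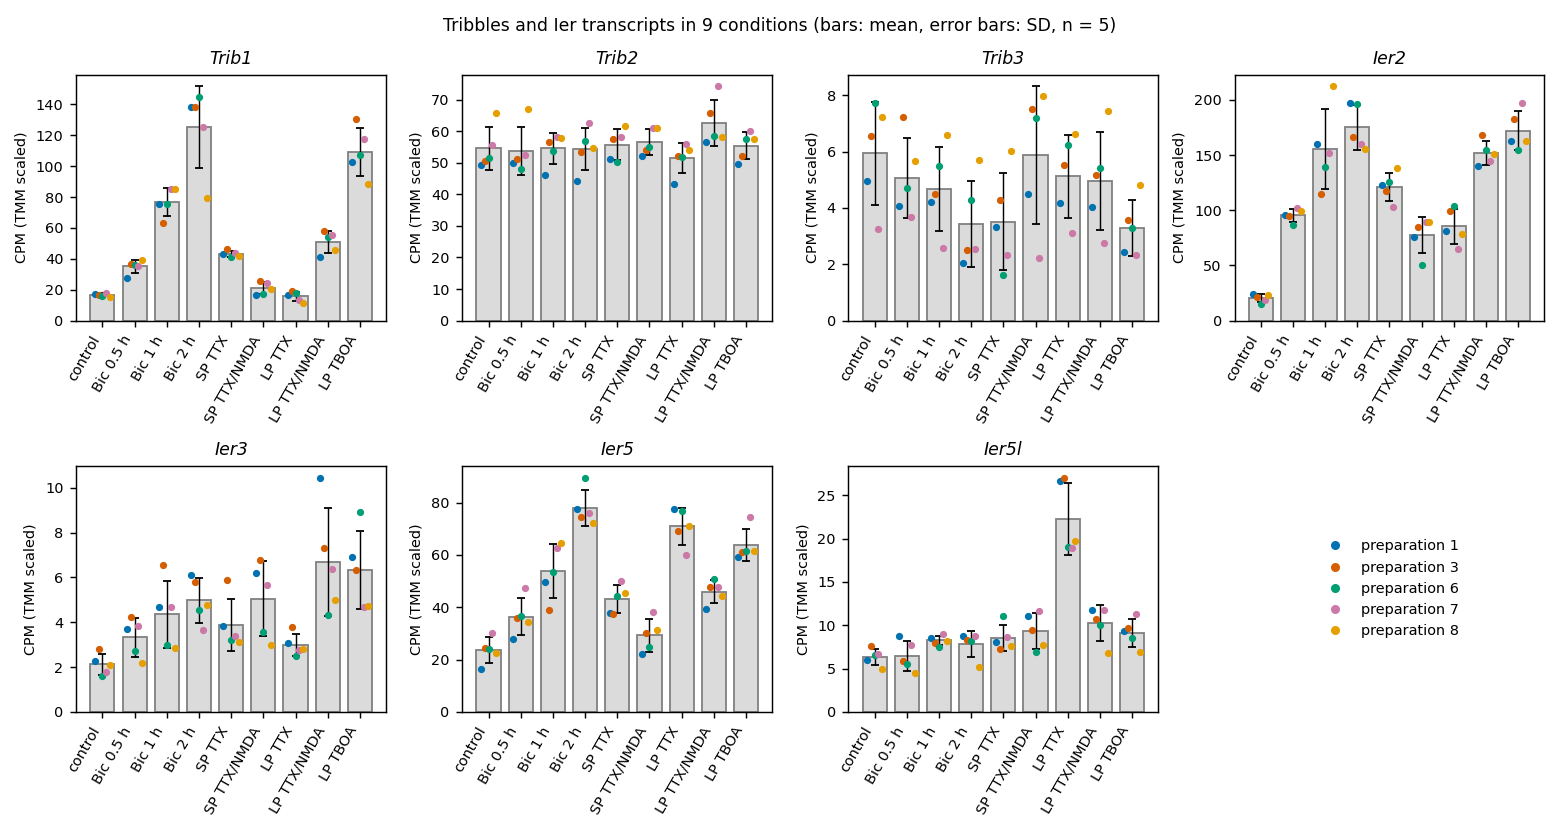
CPM (y axis) of each of the 7 transcripts in 9 conditions (x axis); bars are means, error bars SD, and points the 5 preparations, each with its own colour. Trib1, Ier2 and Ier5 climb with Bic duration, Trib2 stays near 55 CPM, and Ier5l stands out in LP TTX, where its 5 libraries lie between 18.9 and 27.03 CPM.

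AP firing upregulated Trib1, Ier2, Ier3 and Ier5, left no called change in Trib2 and was followed by a lower Trib3. A gene is called where its adjusted p is under 0.05 in the quasi-likelihood test of edgeR, after Benjamini-Hochberg adjustment over all genes tested. At 0.5 h of Bic 3 of 7 members were called higher and 0 lower, against 0.289% of 30133 genes called higher and 0% lower (1104 genes had an unadjusted p under 0.05 in either direction). At 1 h 4 members were called higher and 0 lower, against 0.965% and 0.195% of 30765 genes. At 2 h 4 members were called higher and 1 lower, against 4.24% and 4.78% of 30929 genes.

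Ier2 had the largest log2 fold change of the members at each time. Its untreated libraries read 23.8, 21.2, 15.4, 18.5 and 23.2 CPM in preparations 1, 3, 6, 7 and 8, and its 0.5 h Bic libraries 95.3, 94.9, 86.3, 102 and 99.0 CPM. Every 0.5 h library lay above every control, a 4.72-fold rise (log2 fold change 2.24, standard error (SE) 0.10, adjusted p = 7.8e-26). Ier2 rose further to 156 ± 35.99 CPM at 1 h (0.70, SE 0.09, adjusted p = 1.2e-08 against 0.5 h) and stood at 175 ± 20.1 CPM at 2 h. The last step, 0.17 (SE 0.10, adjusted p = 0.55), did not pass the test, although without preparation 8, whose Ier2 fell from 212 to 156 CPM between 1 and 2 h, it was 0.34 (adjusted p = 0.000115).

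Trib1 rose in each step. It read 17.2, 16.5, 16.2, 18.1 and 15.4 CPM in the control libraries and 27.8, 36.7, 36.02, 35.4 and 39.5 CPM after 0.5 h of Bic. It then reached 75.7, 63.0, 75.4, 84.9 and 85.0 CPM at 1 h and 138, 138, 145, 126 and 79.6 CPM at 2 h. Preparation 8 was the only preparation in which Trib1 did not increase between 1 and 2 h. The log2 fold changes against control were 1.07 (SE 0.10, adjusted p = 2.3e-12), 2.20 (SE 0.09, adjusted p = 6.7e-22) and 2.89 (SE 0.11, adjusted p = 1e-20), and the steps from 0.5 to 1 h (1.12, SE 0.08, adjusted p = 2.1e-17) and from 1 to 2 h (0.70, SE 0.10, adjusted p = 5.2e-06) were both called. In the first step 3 members (Trib1, Ier2 and Ier5) were called higher and 0 lower, against 0.634% and 0.043% of 30267 genes. In the second step 2 (Trib1 and Ier5) were called higher and 0 lower, against 2.53% and 2.8% of 30975 genes.

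Ier5 rose more slowly and by less, from 23.6 ± 4.90 CPM to 36.4 ± 7.05 at 0.5 h, 53.8 ± 10.4 at 1 h and 78.0 ± 6.80 CPM at 2 h. The control range (16.5 to 30.2 CPM) overlapped that at 0.5 h (27.8 to 47.4 CPM) but not those at 1 h and 2 h. Its log2 fold changes were 0.61 (SE 0.11, adjusted p = 0.00046), 1.17 (SE 0.12, adjusted p = 7.2e-10) and 1.70 (SE 0.10, adjusted p = 3e-15). With a filter on low counts the 0.5 h value (adjusted p = 0.097) and the step to 1 h (adjusted p = 0.10) were not called. Ier3 was low throughout, at 2.11 ± 0.463 CPM in control and 4.98 ± 0.999 CPM after 2 h, and rose by 1.07 (SE 0.20, adjusted p = 0.00056) at 1 h and 1.24 (SE 0.17, adjusted p = 1.2e-06) at 2 h. Its 0.5 h value of 0.68 (SE 0.19, adjusted p = 0.24) was higher in 5 of 5 preparations, and without preparation 8 it was called (0.81, adjusted p = 0.025).

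Trib3 read 4.96, 6.57, 7.72, 3.26 and 7.24 CPM in control and 2.06, 2.52, 4.30, 2.55 and 5.71 CPM after 2 h of Bic. It was lower in 5 of 5 preparations, although the ranges of the groups overlapped. The log2 fold change was −0.78 (SE 0.21, adjusted p = 0.014), and the call was lost with a filter on low counts (adjusted p = 0.077) and in a fit of all 45 libraries (adjusted p = 0.099). With the preparation as a block, which removes differences between preparations and was always fitted with the low-count filter, Trib3 was also called at 1 h against control (−0.37, adjusted p = 0.049) and at 2 h against 1 h (−0.44, adjusted p = 0.016), the latter also without preparation 8 (−0.53, adjusted p = 0.038). That fit called 4.07% and 23.5% of genes in those comparisons, and 29.3% in 2 h Bic against control. In the last of these, the blocked fit also called Ier5l, with a small rise of 0.29 (adjusted p = 0.028), which the unblocked fit did not call (adjusted p = 0.25). Trib2 differed from control by −0.01 (95% interval −0.19 to 0.16, adjusted p = 0.97) after 2 h.

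**Figure D2:**
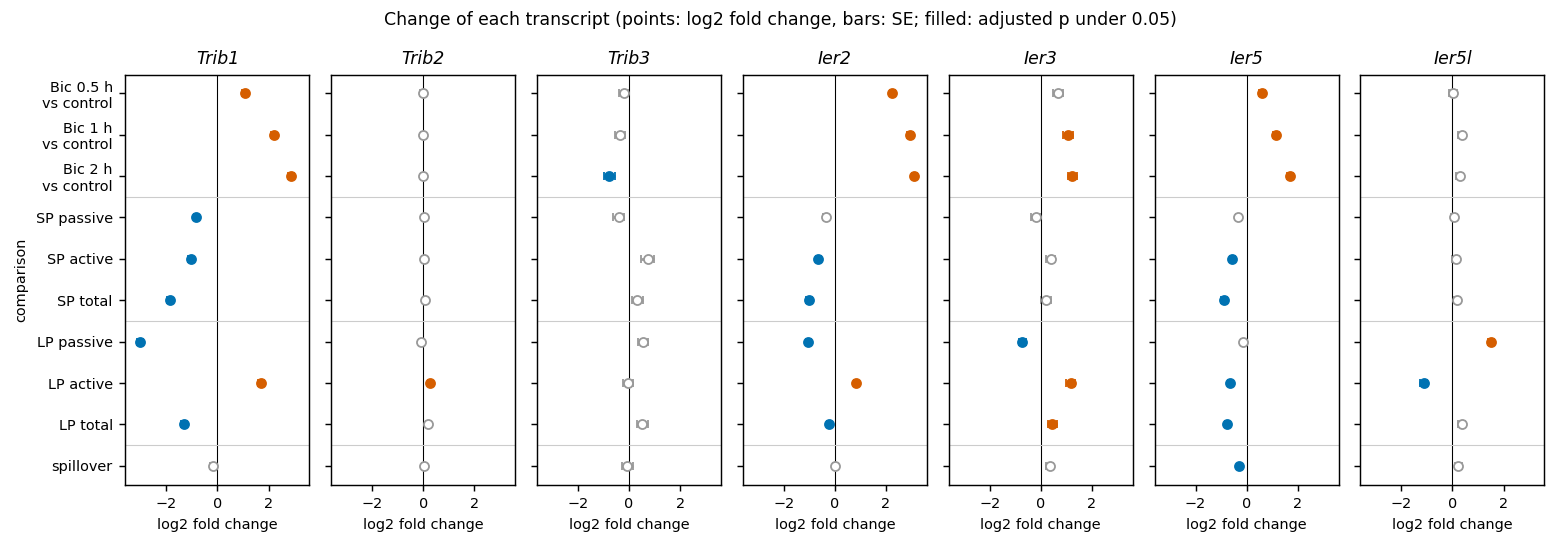
Log2 fold change (x axis) of each transcript in 10 comparisons (y axis); error bars are SE, filled orange and blue points passed the test as higher and lower, and open grey points did not. Trib1 and Ier2 are blue in the SP active effect and orange in the LP active effect, and Ier5 is blue in both.

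In the SP, stopping AP firing lowered Trib1 relative to 1 h of Bic, and adding NMDA lowered Trib1, Ier2 and Ier5. The passive effect called 0 members higher and 1 lower, against 0.0157% and 0.252% of 31765 genes. SP TTX libraries held 43.3, 46.1, 41.1, 43.6 and 42.1 CPM of Trib1, each below every 1 h Bic library (−0.83, SE 0.08, adjusted p = 4.5e-10). Ier2 at 121 ± 12.8 CPM (−0.36, SE 0.10, adjusted p = 0.15) and Ier5 at 42.97 ± 5.34 CPM (−0.33, SE 0.09, adjusted p = 0.29) were not called. Both were called without preparation 3, with values of −0.44 (adjusted p = 0.00013) and −0.38 (adjusted p = 0.0049), and Ier2 also without preparation 6 (−0.40, adjusted p = 0.014).

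Against the level when TTX was added (0.5 h Bic), SP TTX showed no called fall of any member. 1 member was called higher and 0 lower, against 0.296% and 0.0191% of 31379 genes. It was Ier2, by 0.34 (SE 0.08, adjusted p = 0.012), with SP TTX libraries (103 to 138 CPM) all above the 0.5 h Bic libraries. That call was lost with a filter on low counts (adjusted p = 0.11) and in a fit of all 45 libraries (adjusted p = 0.77). It was also lost with that filter and the preparation as a block together (adjusted p = 0.065, where 0.669% of genes were called). The same held without preparation 6 (0.29, adjusted p = 0.051) or 8 (0.30, adjusted p = 0.065). Trib1 was 1.22-fold above its 0.5 h Bic level with no overlap of the groups, which was not called (0.29, SE 0.08, adjusted p = 0.16). Without preparation 8 Trib1 (0.34, adjusted p = 0.026) and Trib3 (−0.83, adjusted p = 0.00033) were called, and without preparation 1 Ier5l was (0.53, adjusted p = 0.038).

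The SP active effect called 0 members higher and 3 lower, against 0.956% and 3.32% of 32229 genes. NMDA with TTX brought Trib1 down to 16.8, 25.6, 17.4, 24.2 and 20.7 CPM, below every SP TTX library and overlapping the control libraries (−1.05, SE 0.09, adjusted p = 3.7e-10). Ier2 fell to 77.8 ± 16.3 CPM (−0.65, SE 0.10, adjusted p = 4.6e-05) and Ier5 to 29.2 ± 6.20 CPM (−0.56, SE 0.10, adjusted p = 0.00044), each lower in 5 of 5 preparations. Trib3 went the other way without passing the test (0.72, SE 0.26, adjusted p = 0.13). Its SP TTX library of preparation 6 was at 1.602 CPM, the lowest Trib3 value of all libraries, and it was called without preparation 7 (0.84, adjusted p = 0.0043) or 8 (0.91, adjusted p = 1.7e-06). Ier3, at 0.38 (SE 0.18, adjusted p = 0.34), was called without preparation 8 (0.46, adjusted p = 0.039).

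The SP total effect called Trib1, Ier2 and Ier5 lower (3 members) and 0 members higher, against 3.41% and 0.891% of 31414 genes. The values were −1.87 (SE 0.10, adjusted p = 7.8e-17) for Trib1, −0.9998 (SE 0.12, adjusted p = 1.6e-07) for Ier2 and −0.88 (SE 0.11, adjusted p = 9.3e-07) for Ier5. Expressed as the part of the 1 h Bic increase over control that was present, SP TTX held 45.4 ± 10.6% for Trib1, 77.7 ± 17.6% for Ier2 and 67.7 ± 13.5% for Ier5, computed within each preparation. In SP TTX/NMDA these were 7.51 ± 7.77%, 44.4 ± 15.95% and 20.5 ± 13.2%. In both the SP active and the SP total effect, 1 of 5 neuronal markers was called lower, and no marker of the other cell types was called. The part of this in the falls of Trib1, Ier2 and Ier5 was not tested.

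In the LP, TTX separated the members most widely. Trib1 fell to about its untreated level, Ier2 and Ier3 fell part of the way, Ier5 stayed high, and Ier5l, which Bic had changed little, rose. The passive effect called 1 member higher and 3 lower, against 3.03% and 1.62% of 31944 genes. Trib1 read 16.3, 19.1, 17.8, 13.6 and 11.4 CPM in LP TTX, a range that overlapped control (15.4 to 18.1 CPM), and differed from control by −0.11 (95% interval −0.33 to 0.10, adjusted p = 0.61). Between the addition of TTX at 1 h of Bic and collection 1 h later, Trib1 fell 4.96-fold (−2.31, SE 0.10, adjusted p = 4e-20).

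Ier2 read 81.3, 99.0, 104, 65.0 and 78.8 CPM in LP TTX. All 5 libraries lay below those of 2 h Bic (−1.04, SE 0.09, adjusted p = 6.2e-10) and above those of control, against which Ier2 was still 4.18-fold higher (2.06, SE 0.11, adjusted p = 5.3e-17). Ier5 read 77.6, 69.3, 76.9, 60.1 and 71.2 CPM, against 77.7, 74.6, 89.6, 76.1 and 71.996 CPM after 2 h of Bic, so that preparations 1 and 8 hardly moved and preparation 7 fell most. The Ier5 change of −0.15 (95% interval −0.29 to −0.01, adjusted p = 0.32) was called only with the preparation as a block (−0.16, adjusted p = 0.020, in a fit that called 32% of genes). Relative to the level when TTX was added, Ier5 was higher by 0.39 (SE 0.09, adjusted p = 0.0033).

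Ier5l read 26.7, 27.03, 19.01, 18.9 and 19.8 CPM in LP TTX, the highest 5 of its 45 libraries, against 5.17 to 8.80 CPM after 2 h of Bic and 4.94 to 7.57 CPM in control. It was 2.82-fold above 2 h Bic (1.50, SE 0.12, adjusted p = 1.8e-10), 2.70-fold above the level when TTX was added (1.43, SE 0.11, adjusted p = 3.7e-13) and 3.46-fold above control (1.79, SE 0.12, adjusted p = 2.8e-14). Ier3 fell to 2.99 ± 0.497 CPM (−0.72, SE 0.15, adjusted p = 0.0024), a call that was lost in a fit of all 45 libraries (adjusted p = 0.055). Trib3 was higher in 5 of 5 preparations, at 5.13 ± 1.47 CPM, by 0.55 (SE 0.21, adjusted p = 0.15), and was called with the preparation as a block (0.56, adjusted p = 0.0020) and without preparation 7 (0.61, adjusted p = 0.044) or 8 (0.67, adjusted p = 0.0053).

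LP TTX against 1 h Bic called 2 members higher (Ier5 and Ier5l) and 2 lower (Trib1 and Ier2), against 4.34% and 2.85% of 31856 genes. Ier3, at −0.54 (SE 0.18, adjusted p = 0.053), was called there with the preparation as a block (adjusted p = 0.0029, where 29.1% of genes were called), with another scaling (adjusted p = 0.044) and without preparation 6 (−0.61, adjusted p = 0.00625) or 8 (−0.62, adjusted p = 0.0081). LP TTX against control called 3 members higher (Ier2, Ier5 and Ier5l) and 0 lower, against 4.33% and 2.43% of 31694 genes. Ier3, at 0.53 (SE 0.17, adjusted p = 0.063), was called there with the block (adjusted p = 0.0060, where 24.1% of genes were called) and by DESeq2 (adjusted p = 0.033). Within preparations, the part of the 2 h Bic increase that was present in LP TTX was −1.59 ± 3.57% for Trib1, 32.9 ± 11.4% for Ier3, 42.1 ± 9.27% for Ier2 and 86.7 ± 14.3% for Ier5.

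**Figure D3:**
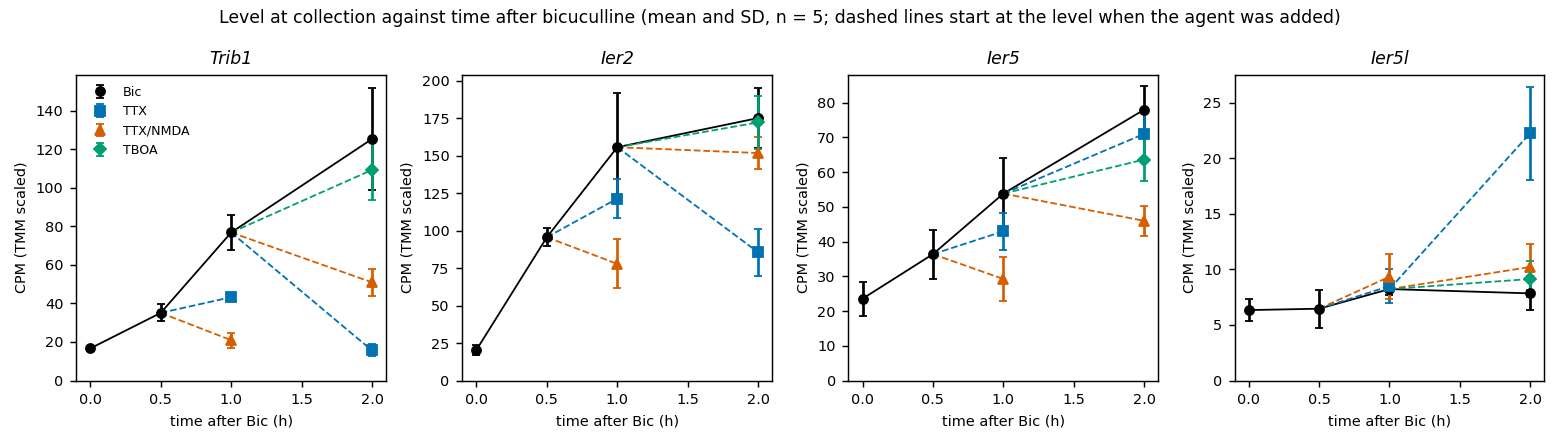
CPM (y axis; mean and SD, n = 5) against time after Bic (x axis, h) for 4 transcripts; the black line joins Bic alone, and dashed lines lead from the level when an agent was added to the level with TTX (blue), TTX/NMDA (orange) or TBOA (green). In the LP, TTX takes Trib1 near its starting level and Ier5l to about 22 CPM, while Ier5 with TTX ends near Bic alone.

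NMDA in the LP raised Trib1, Trib2, Ier2 and Ier3 above TTX alone and lowered Ier5 and Ier5l. The LP active effect called 4 members higher and 2 lower, against 11.6% and 11.8% of 32852 genes. With a filter on low counts, 4090 genes were called higher and 3736 lower of 16399. Trib1 read 41.5, 58.2, 54.1, 55.3 and 45.7 CPM in LP TTX/NMDA, above every LP TTX and control library (1.70, SE 0.11, adjusted p = 8.9e-13). Ier2 read 140.2, 168, 154, 145 and 151 CPM, above every LP TTX library (0.82, SE 0.09, adjusted p = 2.8e-08). Ier3 rose above every LP TTX library, to 10.46, 7.31, 4.31, 6.39 and 5.01 CPM (1.17, SE 0.18, adjusted p = 7.8e-06). Trib2 read 56.7, 65.7, 58.4, 74.3 and 58.1 CPM, above every LP TTX library (43.4 to 56.0 CPM), a rise of 0.27 (SE 0.08, adjusted p = 0.014) that was the only call of Trib2 in the 15 unblocked comparisons between conditions.

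Ier5 fell to 39.3, 47.9, 50.7, 47.7 and 44.3 CPM (−0.64, SE 0.08, adjusted p = 2.8e-07) and Ier5l to 11.8, 10.8, 10.02, 11.8 and 6.78 CPM (−1.13, SE 0.13, adjusted p = 5.8e-08), each with no overlap with LP TTX. Trib3 did not pass the test (−0.04, 95% interval −0.43 to 0.34, adjusted p = 0.92). In the same comparison 5 of 5 astrocyte markers, 4 of 5 fibroblast and mural markers and 2 of 5 oligodendrocyte lineage markers were called higher, as were 1 of 5 microglial and 1 of 5 endothelial markers, and 2 of 5 neuronal markers were called lower. The summed astrocyte markers were 772 to 1621 CPM in LP TTX/NMDA against 429 to 905 CPM in LP TTX, those of fibroblast and mural cells 70.6 to 151 against 57.8 to 104 CPM, those of the oligodendrocyte lineage 127 to 238 against 84.7 to 132 CPM, and those of neurons 4546 to 4884 against 5450 to 5856 CPM. Sox10 of the oligodendrocyte lineage list was at 0 in 5 of the 45 libraries, the microglial P2ry12 in 6 and the endothelial Cldn5 in 27, whereas each astrocyte marker had reads in all. The part of these shifts in the Trib1, Trib2, Ier2 and Ier3 rises was not tested, and in bulk RNA fewer cells of a type and less RNA per cell cannot be told apart.

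The LP total effect called 1 member higher and 3 lower, against 11.7% and 11.1% of 32243 genes. Trib1 (−1.32, SE 0.11, adjusted p = 2e-11) and Ier5 (−0.78, SE 0.08, adjusted p = 1.2e-09) were below 2 h Bic, without overlap of the groups. The fall of Ier2 (−0.22, SE 0.08, adjusted p = 0.030) and the rise of Ier3 (0.46, SE 0.17, adjusted p = 0.049) were smaller relative to their errors. Ier2 was not called with a filter on low counts (adjusted p = 0.052), in a fit of all 45 libraries (adjusted p = 0.24) or without preparation 1 (−0.12, adjusted p = 0.33), 6 (−0.16, adjusted p = 0.17) or 7 (−0.21, adjusted p = 0.051). Ier3 was not called with that filter (adjusted p = 0.077), by DESeq2 (adjusted p = 0.11), in the fit of all libraries (adjusted p = 0.11) or without preparation 1 (0.33, adjusted p = 0.18) or 7 (0.40, adjusted p = 0.065).

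With the preparation as a block, which called 56.6% of genes in this comparison, Trib2 (0.22, adjusted p = 0.0041), Trib3 (0.57, adjusted p = 0.0023) and Ier5l (0.40, adjusted p = 0.00041) were called higher too, each being higher in 5 of 5 preparations. Their unblocked values were 0.19 (adjusted p = 0.11), 0.51 (adjusted p = 0.084) and 0.37 (adjusted p = 0.056). Trib2 was also called without preparation 6 or 8, and Trib3 and Ier5l without preparation 6, 7 or 8. Here too 5 of 5 astrocyte, 3 of 5 fibroblast and mural and 2 of 5 oligodendrocyte lineage markers were called higher and 2 of 5 neuronal markers lower. After 2 h of Bic the astrocyte markers summed to 480 to 855 CPM and the neuronal markers to 5122 to 5548 CPM, against 4546 to 4884 CPM for the latter in LP TTX/NMDA. The part of these shifts in the LP total effects was not tested. The part of the 2 h Bic increase that was present in LP TTX/NMDA was 33.1 ± 9.83% for Trib1, 41.4 ± 3.89% for Ier5, 86.2 ± 14.05% for Ier2 and 163 ± 66.9% for Ier3.

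TBOA was followed by a single called change among the members. The spillover comparison called 0 members higher and 1 lower, against 0.0536% and 0.549% of 31706 genes. Ier5 read 59.3, 61.2, 61.7, 74.4 and 61.5 CPM and was lower than after 2 h of Bic in 5 of 5 preparations (−0.28, SE 0.07, adjusted p = 0.046). The call was lost with a filter on low counts (adjusted p = 0.12), in a fit of all 45 libraries (adjusted p = 0.65) and without preparation 1 (−0.26, adjusted p = 0.21), 3 (−0.29, adjusted p = 0.070) or 6 (−0.22, adjusted p = 0.38). Ier2, at 172 ± 17.4 CPM, differed from 2 h Bic by −0.01 (95% interval −0.15 to 0.13, adjusted p = 0.96). Ier3 (0.35, SE 0.15, adjusted p = 0.53) and Ier5l (0.23, SE 0.13, adjusted p = 0.65) had higher means that did not pass the test. Trib1 was called without preparation 8 only (−0.24, adjusted p = 0.026).

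The protocols differed in what TTX and NMDA did to Trib1, Ier2 and Ier5l, as tested by the interaction of the LP and SP effects. The passive effect was more negative in the LP for Trib1 (−2.19, SE 0.15, adjusted p = 2.7e-13) and Ier2 (−0.69, SE 0.15, adjusted p = 0.027), and more positive for Ier5l (1.43, SE 0.17, adjusted p = 1.2e-06). These were 1 member higher and 2 lower, against 0.187% and 0.0699% of 34313 genes. The Ier2 call was lost with a filter on low counts (adjusted p = 0.14) and without preparation 1 (−0.63, adjusted p = 0.22), and Trib3 was called without preparation 8 (1.28, adjusted p = 0.012).

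The active effect changed sign between the protocols for Trib1 and Ier2. Relative to TTX alone, both were lower with NMDA in the SP and higher in the LP. The difference was 2.77 (SE 0.16, adjusted p = 3.6e-15) for Trib1 and 1.48 (SE 0.16, adjusted p = 2.3e-08) for Ier2, positive in 5 of 5 preparations. In LP TTX/NMDA Trib1 (50.9 CPM) was below its level when the agents were added (1 h Bic, 76.8 CPM), without overlap. Ier2, at 152 CPM, overlapped its 1 h Bic level of 156 CPM. These 2 comparisons with the level at addition were not tested. For Ier5l the difference was −1.24 (SE 0.20, adjusted p = 0.00011), between a SP value of 0.12 (SE 0.13, adjusted p = 0.65) and the LP fall. These were 2 members higher and 1 lower, against 0.722% and 1.85% of 35027 genes. For Ier5 the active effects were −0.56 (SP) and −0.64 (LP), and the difference was −0.06 (95% interval −0.35 to 0.22, adjusted p = 1.0). With the preparation as a block, in a fit that called 25% of genes, Trib2 (0.26, adjusted p = 0.019), Trib3 (−0.86, adjusted p = 0.035) and Ier3 (0.80, adjusted p = 0.0060) were called as well, and Trib3 (−1.02, adjusted p = 0.038) and Ier3 (0.80, adjusted p = 0.048) also without preparation 8. The total effect was less negative in the LP for Ier2 (0.78, SE 0.16, adjusted p = 0.0057), which was 1 member higher and 0 lower against 0.42% and 1.08% of 34304 genes. Trib1, at 0.56 (SE 0.17, adjusted p = 0.076), was called there with the block (0.58, adjusted p = 0.029, where 19.1% of genes were called) and without preparation 3 (0.71, adjusted p = 0.017).

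**Figure D4:**
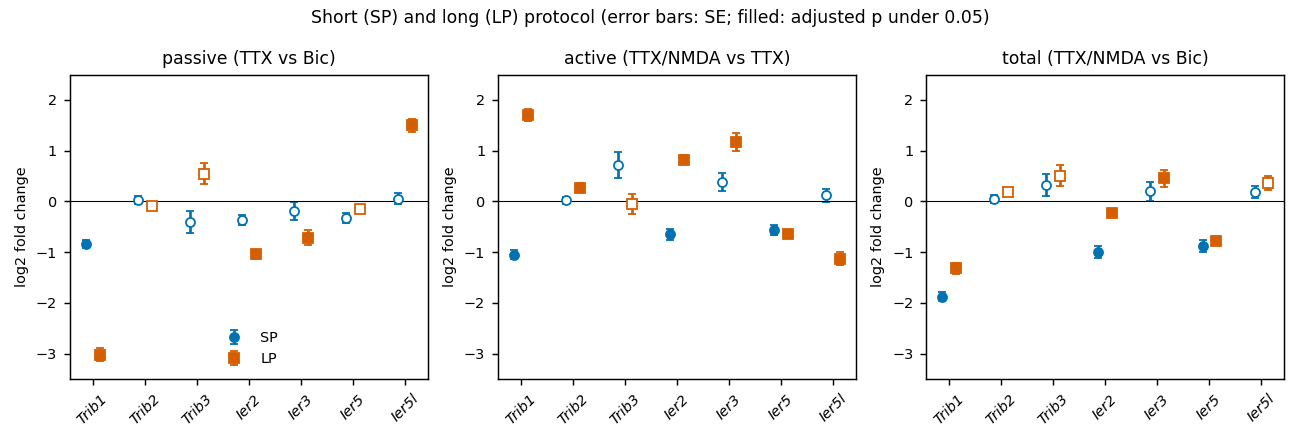
Passive, active and total effects (y axis, log2 fold change; error bars SE) on each transcript (x axis) in the SP (blue circles) and the LP (orange squares), filled where the effect passed the test. In the active panel Trib1 lies at −1.05 (SP) and 1.70 (LP), whereas both Ier5 values lie near −0.6.

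Ordered by mean level, Trib1 ran from LP TTX, control and SP TTX/NMDA, whose neighbouring ranges overlapped, through 0.5 h Bic to SP TTX and LP TTX/NMDA, which overlapped each other, then 1 h Bic, and last LP TBOA and 2 h Bic, which overlapped each other, the latter also overlapping 1 h Bic. For Ier2, control stood alone at the bottom, SP TTX/NMDA, LP TTX and 0.5 h Bic overlapped as neighbours, SP TTX overlapped neither of its immediate neighbours but did overlap LP TTX and 1 h Bic, and LP TTX/NMDA, 1 h Bic, LP TBOA and 2 h Bic overlapped as neighbours at the top. For Ier5l the neighbouring ranges overlapped from control up to LP TTX/NMDA, and LP TTX stood apart. For Trib2, Trib3, Ier3 and Ier5 all neighbours in the order overlapped.

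Of 12 immediate early genes fixed for reference (transcription factors and regulators such as Fos, Arc, Npas4 and Klf4), 11, 12 and 12 were called higher after 0.5, 1 and 2 h of Bic and 0 lower, with median log2 fold changes of 2.84, 4.05 and 4.59 where the median of all genes tested was −0.01 each time. Fosb (6.88), Npas4 (5.54) and Fos (5.39) led at 2 h. For this list and those below, the shares of all genes called in each comparison are those given above for the members. LP TTX called 12 of 12 lower, with Btg2 (−2.61), an antiproliferative factor, Klf4 (−2.37) and the MAP kinase phosphatase gene Dusp1 (−2.23) ahead. In the LP active effect 5 were called higher, led by Btg2 (2.65), Klf4 (2.25) and Dusp1 (2.21), and 2 lower, Atf3 (−0.63) and Fosb (−0.58), with a list median of 0.21 against 0.11 over all genes. In the SP active effect 11 were called lower and 0 higher (median −0.97, all genes 0.04), led by Egr2 (−1.97), Atf3 (−1.50) and Fosb (−1.37).

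Among 14 Tribbles partners and targets, 1 was called higher and 1 lower after 2 h of Bic (median 0.00, all genes −0.01). Cebpb, a C/EBP transcription factor, rose by 1.31 (adjusted p = 7.8e-12), and Foxo1, a forkhead transcription factor, fell by 0.42 (adjusted p = 0.00019). The LP passive effect called 2 higher, Cebpa (0.77) and Cebpg (0.36), and 2 lower, Cebpd (−0.91) and Cebpb (−0.75), with a median of 0.00 against 0.01 over all genes. The LP active effect called 4 higher, led by Cebpd (1.09), Acacb (0.75, an acetyl-CoA carboxylase) and Cebpb (0.64), and 7 lower, among them Cebpa (−0.74) and Acaca (−0.52), with a median of −0.20 against 0.11. The LP total effect called 0 higher and 5 lower, among them Acaca (−0.46) and Map2k1 (−0.39), with a median of −0.04 against 0.11. The part of the cell type marker shifts in the LP active and LP total changes of this and the other lists was not tested.

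Of 12 genes of the ATF4 and CHOP branch, with which Trib3 is usually grouped, 7 were called higher and 0 lower after 2 h of Bic (median 0.51, all genes −0.01), while Trib3 itself was lower. They were led by Atf3 (4.64, also among the immediate early genes), Ppp1r15a (1.73), which encodes a regulatory subunit that dephosphorylates eIF2α, and Eif2ak3 (0.75), which encodes the kinase PERK. The LP active effect called 1 higher, the stress-induced Nupr1 (0.57), and 5 lower, led by Stc2 (−0.99), Eif2ak3 (−0.96) and Atf3 (−0.63), with a median of −0.21 against 0.11. In the LP total effect 1 was called higher, Nupr1 (0.65), and 5 lower, led by Atf3 (−1.30), Eif2ak3 (−0.92) and Ppp1r15a (−0.65). The list median was −0.17 against 0.11, where 11.7% of all genes were called higher and 11.1% lower. TBOA called 2 lower, Eif2ak3 (−0.37) and Atf3 (−0.35), and 0 higher, with a median of −0.07 against 0.02. Of all genes, 0.549% were called lower there and 0.0536% higher.

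Of 16 Ier protein partners (PP2A subunits and Hsf1 among them) and heat shock targets, 6 were called higher and 0 lower after 2 h of Bic (median 0.07, all genes −0.01). Hspa1b (1.30) and Dnajb1 (1.24), heat shock protein genes, and Mcl1 (0.90), a survival gene of the BCL2 family, led. Hspa1b is nearly identical to Hspa1a, so reads that fit both genes were left out of the counts and its values are uncertain. The LP passive effect called 1 lower, Hsf1 (−0.28), and 0 higher, with a median of −0.01 against 0.01. Of all genes, 1.62% were called lower there and 3.03% higher. The LP active effect called 9 lower and 0 higher, among them Hspa1b (−0.84) and Hsph1 (−0.51), with a median of −0.21 against 0.11. The LP total effect called 10 lower and 0 higher, led by Hspa1b (−1.16), Ppp2r2c (−0.54) and Dnajb1 (−0.50), with a median of −0.22 against 0.11. Of all genes tested there, 11.1% were called lower and 11.7% higher.

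As a description, Pearson correlations were computed over the 9 condition means of log2(CPM + 0.5), which share libraries. Trib1 and Ier2 had r = 0.78, Ier2 and Ier3 r = 0.81, Ier2 and Ier5 r = 0.76, Ier5 and Ier5l r = 0.51, and Trib1 and Trib3 r = −0.79. The 3 genes of mean CPM 1 or more with profiles most like Ier2 were Arc (r = 0.99), Gadd45g (r = 0.99) and Nr4a1 (r = 0.98), and those for Ier5 were Mpdz (r = 0.99), Midn (r = 0.99) and Nr4a2 (r = 0.99). A high r does not mean a change of like size: the condition means of Mpdz spanned 0.21 log2 units against 1.73 for Ier5. Trib1 was most like Gm17024 (r = 0.94), Klf6 (r = 0.94) and Ccdc157 (r = 0.94, spanning 0.14 log2 units against 2.96 for Trib1). Ier5l was most like Map3k14 (r = 0.97), Cebpg (r = 0.96) and Cep76 (r = 0.95), and Ier3 most like Fyco1 (r = 0.98), Kcne4 (r = 0.96) and Carmil1 (r = 0.96, spanning 0.28 log2 units). Trib2, with its narrow range, was most like Dmrt3 (r = 0.99), Tst (r = 0.98) and Hadha (r = 0.98), and Trib3 most like Tti2 (r = 0.97, spanning 0.17 log2 units), Nudt10 (r = 0.93, spanning 0.19 log2 units) and E330034L11Rik (r = 0.90).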

How the data were processed

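Poly(A) RNA of 45 cultures (9 conditions, 5 preparations) was sequenced single-end from a directional library kit. Per the labels and the study's methods, the authors aligned reads to GRCm38 with STAR 2.5.4b, counted them per Ensembl gene with featureCounts 1.6.5 in reverse-stranded mode, without multi-mapping reads or reads shared by overlapping genes, and deposited raw counts. The labels give DIV 10 or 11 for treatment, and the sequencing methods DIV 11. Symbols, loci and exon lengths were taken from GENCODE M21 (GRCm38), which matched 54409 of 54532 identifiers.

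Counts were tested with edgeR 4.0.16 in R 4.3.3 (TMM scaling, quasi-likelihood F test, genes with at least 1 read in the libraries compared, Benjamini-Hochberg adjustment, threshold 0.05), using only the libraries of the conditions compared. SE is the log2 fold change divided by the square root of F, and 95% intervals are 1.96 SE on either side. There were 15 comparisons between conditions and 3 interaction tests. Alternatives were a low-count filter (filterByExpr), DESeq2 1.42.0 size factors and its Wald test, a replicate block with that filter, all 45 libraries in a single fit, and each preparation left out. The labels number the replicates, and the study defines a replicate as a separate culture preparation, so same-numbered libraries were taken as paired. Over 13592 expressed genes (mean CPM of 1 or more) the deviations of same-numbered libraries correlated with a mean r of 0.45 (lowest −0.34), and those of different preparations with −0.11. Library totals spanned 7.17-fold, and intervals cover the spread between preparations. On simulated counts for 2 h Bic against control (21492 genes), 100% of 100 genes changed by 1 log2 unit were recovered, and for the LP minus SP active effect (22756 genes) 93%. Unchanged genes called numbered 7 and 6. The changed genes were drawn from those with higher counts, with the same dispersion for all genes and no differences between preparations. Changes under 1 log2 unit were not simulated, so these runs do not show how often such changes are found.

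The members and lists were chosen with earlier results of these data known, so their counts are descriptions. All 7 members are named. From each list, at most 3 called genes in each direction with the largest log2 fold change are named (some are not reported here), and for each member the 3 genes with the most similar profile. Per-exon-length values (RPKM) were computed from the CPM.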

Additional observations from a re-analysis of the deposited data

Results flagged for a closer look

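Libraries that stood apart within a condition were sought among 63 groups of 5 libraries (7 genes in 9 conditions). A library was picked out where its gap to the nearest other exceeded 0.71 of the group's range, which chance alone gives in about 1 in 20 groups, and 4 groups had such a library. Trib2 after 0.5 h of Bic was highest in preparation 8, at 67.2 CPM. Ier3 in SP TTX was highest in preparation 3, at 5.89 CPM. Ier5 in LP TBOA was highest in preparation 7, at 74.4 CPM. Ier5l after 2 h of Bic was lowest in preparation 8, at 5.17 CPM.

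Effects that differed between the LP and the SP, by the interaction term of edgeR's quasi-likelihood test, were the passive effect for Trib1 (−2.19, adjusted p = 2.7e-13), Ier2 (−0.69, adjusted p = 0.027) and Ier5l (1.43, adjusted p = 1.2e-06). The active effect differed for Trib1 (2.77, adjusted p = 3.6e-15), Ier2 (1.48, adjusted p = 2.3e-08) and Ier5l (−1.24, adjusted p = 0.00011). The total effect differed for Ier2 (0.78, adjusted p = 0.0057). Each of these 7 differences had the same sign in 5 of 5 preparations.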

How the results depend on the processing

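Across 1260 log2 fold changes of members under alternatives, none reversed with a call, 1165 kept direction and call, 27 lost and 45 gained a call, and 23 changed sign without a call either way. With the replicate block and filterByExpr together (the paired fit), the LP total effect called 7 members in place of 4, the LP minus SP active effect 6 in place of 3, the LP minus SP total effect 2 in place of 1, and SP TTX against 0.5 h Bic 0 in place of 1, a call that filterByExpr alone also lost. The paired fit called 56.6%, 25%, 19.1% and 0.669% of genes in those comparisons, and changed no other count of members by more than 1.5 times. With filterByExpr and in the fit of all 45 libraries, the LP total effect called 2 members, spillover 0 and SP TTX against 0.5 h Bic 0. The all-gene counts with filterByExpr were 7426 of 15947, 104 of 15628 and 52 of 15091 genes. In the fit of all 45 libraries they were 7434, 106 and 80 of 37048 genes. The cause of these changed member counts was not tested. Leaving out each replicate in turn gave 2 to 4 members for 2 h against 1 h Bic, 1 to 3 for the SP passive effect, 3 to 5 for the SP active effect, 2 to 7 for the LP total effect, 0 to 2 for spillover, 0 to 2 for SP TTX against 0.5 h Bic, 3 to 5 for the LP minus SP active effect and 1 to 2 for the LP minus SP total effect. In the same order, the number of all genes called was 1176 to 1876, 52 to 163, 918 to 1828 and 5813 to 7808. It was then 123 to 493, 93 to 135, 489 to 1128 and 225 to 747, of 29793 to 34439 genes tested. For the LP passive effect the all-gene count was 909 to 1647, against 1485 with all preparations. For the LP minus SP passive effect it was 39 to 123, against 88. The all-gene shares printed beside the members thus also depend on single preparations. DESeq2 size factors shifted the median of all genes by at most 0.02 on the log2 scale. Depth limited Ier3 and Trib3 most, which had as few as 26 and 37 reads in a library.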
